A study of Mus musculus with 6 samples.

Results

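The genes of the proteasome were examined in gastrocnemius muscle, the large muscle of the calf, of *HrasG12V* and wild-type (WT) mice. Members were all gene symbols made of *Psma*, *Psmb*, *Psmc*, *Psmd* or *Psme* and a number, except the immunoproteasome subunits *Psmb8*, *Psmb9* and *Psmb10*, which gave 40 of the 23997 symbols listed. Of these, 14 encode the 20S core, 17 encode the 19S cap, 3 are chaperones of cap assembly, 4 are proteasome activators and 2 are tissue-specific core subunits. *Psmc3ip* and *Psme2b* do not end in the number and were left out.

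Each of 6 mice gave 1 library, all at 21 days of age and untreated. The *HrasG12V* mice 2276, 2278 and 2279 (genotype HrasG12V/+) carried Caggs-Cre, which is active throughout the body, and the recombined allele of the small GTPase Hras. WT mice 2277, 2280 and 2281 (genotype Hras+/+ by label) were littermates without Cre that kept the allele in its floxed, unrecombined form, so the presence of Cre and the mutation cannot be told apart. All were of a mixed background of SWR/J, 129S1/SvImJ and C57BL/6J, and the labels name no sex, litter or batch. The deposited values were FPKM, which count sequenced fragments relative to transcript length with libraries scaled to each other, so that levels can be compared between genes as well as between mice. Read counts could not be recovered from them, and as the methods state only a nominal depth for all libraries, the error of each level is known only from the spread between mice.

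The proteasome degrades most short-lived and misfolded proteins of the cell. Its 20S core is a barrel of stacked rings, the outer ones made of alpha subunits that gate the entrance and the inner ones of beta subunits that carry the proteolytic sites. The 19S cap binds to the end of the barrel, and its base of ATPases unfolds the substrate while its lid removes the ubiquitin chain that marks the substrate for destruction. In skeletal muscle the ubiquitin-proteasome system is the main route by which contractile proteins are broken down, and its subunit genes are known to be induced together by the transcription factor Nfe2l1 when proteasome activity is limiting.

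To show the sequence in front of these genes, promoter windows of RefSeq on GRCm38.p6, from 250 bases before to 50 bases after the start of transcription, were searched on both strands for 4 short motifs. RefSeq windows were found for 33 of the 40 members, 11 of them core and 14 cap genes, and no entry was found for *Psma8*, *Psmb1*, *Psmb2*, *Psmb7*, *Psmc3*, *Psmd3* and *Psmd7*. The motifs were TGACNNNGC, the core of the antioxidant response element to which Nfe2l1 binds with a small Maf protein, CCGGAAG, bound by ETS factors, CCAAT, bound by NF-Y, and AAGATGG, bound by YY1. The last bases of CCGGAAG can also be the first of AAGATGG. The ETS motif stood in 9 of 14 cap genes (64.3%) and in 1 of 11 core genes (9.09%), against 9.93% of the 27025 gene symbols with a window. The 9 cap genes were *Psmc1*, *Psmc2*, *Psmc6*, *Psmd2*, *Psmd4*, *Psmd6*, *Psmd11*, *Psmd12* and *Psmd13*. TGACNNNGC stood in 2 core genes (18.2%) and 2 cap genes (14.3%), close to the 13.99% of all symbols. CCAAT stood in 6 core genes (54.5%) and 4 cap genes (28.6%), against 41.1% of all, and AAGATGG in 7 of the 33 members (21.2%), against 7.28% of all. These matches describe the letters in the windows and were not tested.

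The windows of 2 core genes with TGACNNNGC and of 2 cap genes with CCGGAAG are shown, with the matched motif in capitals. *Psmb5* and *Psmb6* encode catalytic subunits of the core, *Psmd12* a lid subunit with both motifs, and *Psmd2* the base subunit to which shuttle proteins bind. The *Psmb5* window is chr14:54617946-54618245 on the minus strand, with the motif beginning at position -47 from the start of transcription. The *Psmb6* window is chr11:70525107-70525406 on the plus strand, with TGACNNNGC at -9 and AAGATGG at 38. The *Psmd12* window is chr11:107479278-107479577 on the plus strand, and its motifs, TGACNNNGC at -247 and CCGGAAG at -17, are read on the opposite strand. The *Psmd2* window is chr16:20651402-20651701 on the plus strand, and its CCGGAAG at -26 is also read on the opposite strand.
Psmb5: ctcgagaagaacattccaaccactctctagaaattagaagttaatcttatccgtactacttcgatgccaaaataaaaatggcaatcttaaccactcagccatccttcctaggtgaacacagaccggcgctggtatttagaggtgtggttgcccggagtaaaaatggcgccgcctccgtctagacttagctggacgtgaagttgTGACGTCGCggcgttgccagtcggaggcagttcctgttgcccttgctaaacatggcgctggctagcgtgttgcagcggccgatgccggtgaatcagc
Psmb6: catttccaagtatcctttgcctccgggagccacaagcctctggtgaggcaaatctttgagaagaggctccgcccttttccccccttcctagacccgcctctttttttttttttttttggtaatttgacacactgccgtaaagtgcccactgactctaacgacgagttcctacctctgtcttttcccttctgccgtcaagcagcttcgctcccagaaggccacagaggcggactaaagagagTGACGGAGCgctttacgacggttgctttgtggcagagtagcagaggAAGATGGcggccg
Psmd12: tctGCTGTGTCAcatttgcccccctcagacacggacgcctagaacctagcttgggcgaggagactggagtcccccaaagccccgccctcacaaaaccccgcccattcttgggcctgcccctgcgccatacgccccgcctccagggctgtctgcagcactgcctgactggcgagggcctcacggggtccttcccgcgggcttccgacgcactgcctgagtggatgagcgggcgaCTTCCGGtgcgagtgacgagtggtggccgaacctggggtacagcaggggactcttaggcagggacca
Psmd2: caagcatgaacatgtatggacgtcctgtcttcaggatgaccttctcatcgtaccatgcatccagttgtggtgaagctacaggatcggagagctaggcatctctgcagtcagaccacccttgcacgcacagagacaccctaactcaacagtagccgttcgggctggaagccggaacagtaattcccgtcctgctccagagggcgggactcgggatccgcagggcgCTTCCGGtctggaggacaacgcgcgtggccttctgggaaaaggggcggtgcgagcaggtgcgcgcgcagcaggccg

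Some facts of the libraries bear on what follows. The WT libraries correlated with each other at r = 0.918 to 0.928 over the genes tested and the *HrasG12V* libraries at 0.844 to 0.878. The FPKM summed to 413020 to 547122 in 5 libraries and to 814013 in mouse 2276. *Hras* had an FPKM of 36.8, 36.0 and 51.8 in the WT mice and of 58.8, 28.9 and 16.0 in mice 2276, 2278 and 2279, and as these values do not separate the alleles they do not check the genotype. Of 10 muscle fibre markers, 5 were above 0 in every library, with *Mylpf*, a fast myosin light chain, at 10759.8 FPKM or more. *Acta1* and *Myh4*, which muscle fibres express strongly, were listed at 0 in all 6, *Ckm* in 5, *Myh1* in WT mice 2277 and 2280 and *Tnnt3* in mouse 2276. The 5 markers above 0 in every library summed to 34753 to 50722 FPKM in WT mice and to 87162, 35031 and 27851 FPKM in mice 2276, 2278 and 2279. Nothing in the labels says that the mice of a group were from separate litters, so p-values measure the spread between these mice alone.

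In WT muscle the proteasome genes were abundant and very even between mice. The mean level of the core genes ran from 50.3 FPKM (*Psma5*) to 232 FPKM (*Psmb7*), with a median of 116 FPKM. Cap genes ran from 35.8 FPKM (*Psmd14*) to 96.3 FPKM (*Psmd6*), with a median of 67.5 FPKM, so the typical core gene stood above every cap gene. The mean of the core genes was 1.596, 1.589 and 1.658 times that of the cap genes in WT mice 2277, 2280 and 2281. The 3 cap assembly chaperones were lower, at 6.80 to 12.3 FPKM. Coefficients of variation among the 3 WT mice had a median of 4.94% over the 38 members tested, against 7.65% over the 6367 genes at least as abundant as the lowest member.

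The testis subunit gene *Psma8* and the thymus subunit gene *Psmb11* were near 0. *Psma8* had an FPKM of 0.0214, 0.0827 and 0 in the WT mice and of 0.0230, 0.0673 and 0.0683 in the *HrasG12V* mice. *Psmb11* had 0.148, 0.203 and 0.278 FPKM in WT mice and 0.163, 0.206 and 0.262 FPKM in *HrasG12V* mice. Groups overlapped for both genes, which fell below the limit of a mean of 0.5 FPKM and were not tested. The other 38 members all passed that limit.

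To determine whether *HrasG12V* muscle expressed the proteasome at a different level, log2(FPKM + 0.1) was compared between genotypes with limma, a linear model that shares the estimate of spread among genes, over the 13359 genes with a mean of at least 0.5 FPKM. One gene passed an unadjusted p below 0.05. The activator *Psme2* rose, with a log2 fold change of 0.56, so 1 of 38 members was called higher, against 5.18% of all genes tested (10.2% in either direction). None of the 38 was called lower, against 4.99% of all, and none passed an adjusted p below 0.05, against 0.0599% of all. Without moderation of the variance the count at an unadjusted p was 0. The log2 fold change was positive for 32 of the 38 members and negative for 6, with a median of 0.19 against -0.03 over all genes tested. Every *HrasG12V* mouse lay above every WT mouse for 2 members, *Psme2* and *Psmd5*, against 8.11% of all genes tested, and below for none, against 10.4%.

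The core and cap medians differed little between genotypes, while single *HrasG12V* mice differed widely. The median log2 fold change was 0.20 over the 14 core genes, of which 12 were positive, and 0.19 over the 17 cap genes, of which 15 were positive, and the medians differed by 0.01. Each *HrasG12V* mouse gave a different picture. In mouse 2276 the median core gene was 0.87 above the WT mean on the log2 scale, or 1.83-fold, and the median cap gene 0.63 above, or 1.55-fold. In mouse 2278 the core was at -0.23 (0.851-fold) and the cap at -0.18 (0.885-fold). In mouse 2279 the core was at -0.12 (0.920-fold) and the cap at 0.0035 (1.002-fold). Single WT mice lay between -0.041 and 0.049 for core and cap. Thus the spread between *HrasG12V* mice exceeded the difference between the genotypes, with a median coefficient of variation of 36.4% over the members against 30.2% over genes at least as abundant as the lowest member.

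**Figure D1:**
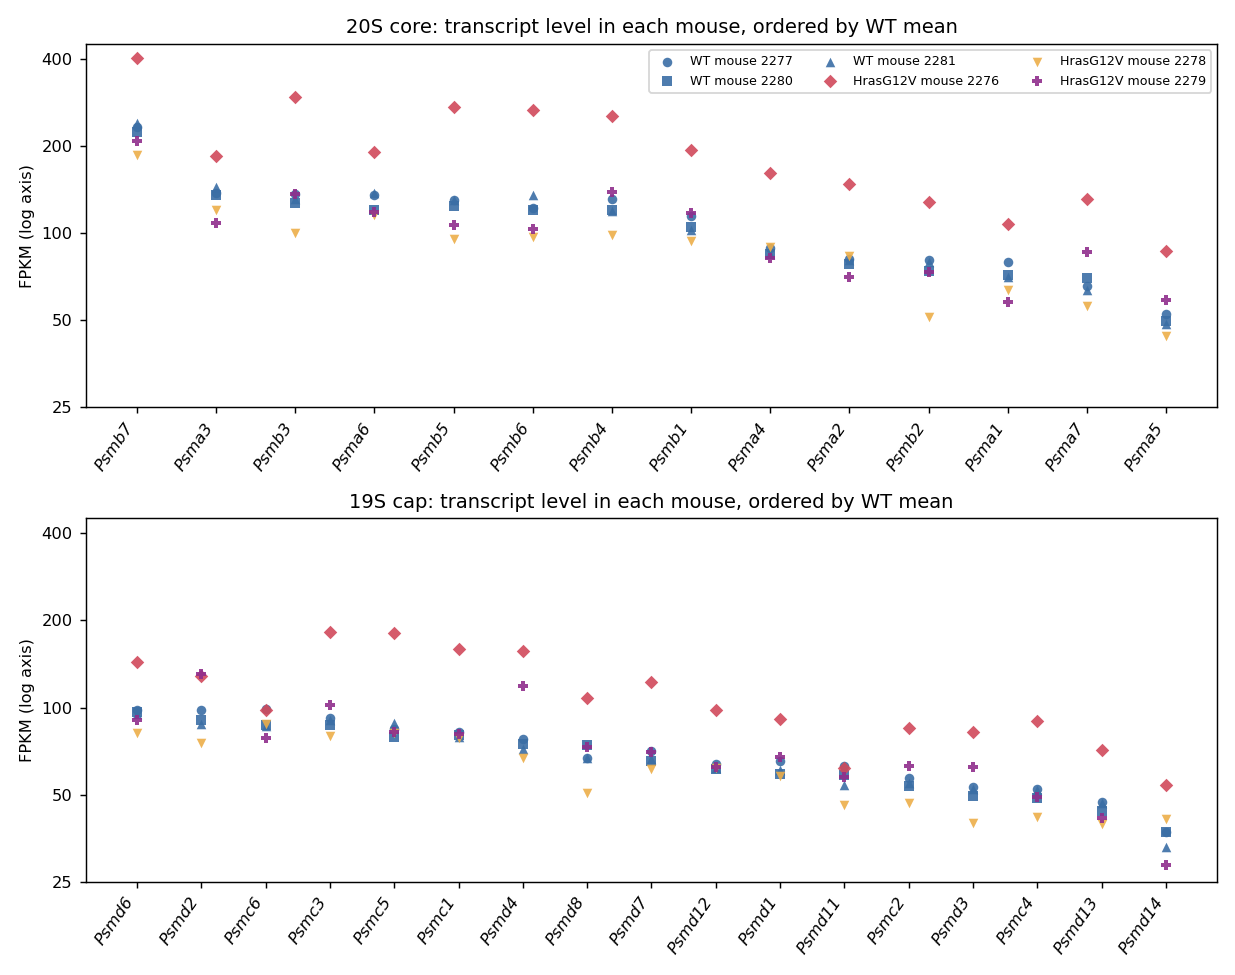
FPKM of the 14 core genes (top) and the 17 cap genes (bottom) in each of the 6 mice, on a log axis, with 1 point per mouse and genes ordered by their WT mean. The 3 WT mice cluster for every gene, mouse 2276 stands above them for all 14 core genes and 15 of 17 cap genes, and mouse 2278 stands below them for 12 core and 13 cap genes.

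Counts of genes gave the same order of the mice. Mouse 2276 was above every WT mouse for 34 of 38 members, among them all 14 core genes and 15 of 17 cap genes, against 43.1% of all genes tested. Mouse 2278 was below every WT mouse for 27 of 38, among them 12 core and 13 cap genes, against 44.9% of all. Mouse 2279 was above every WT mouse for 14 members (5 core, 6 cap), against 33.7% of all, and below for 17 (9 core, 4 cap), against 41.6%. Over the 6367 genes at least as abundant as the lowest member, mice 2276, 2278 and 2279 had a median difference of 0.21, -0.23 and -0.16 from WT. The values of mouse 2278 were therefore near those of other abundant genes, while the proteasome genes of mouse 2276 stood higher.

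Core exceeded cap in mouse 2276 by 0.24 on the log2 scale, and fell short of it by 0.056 in mouse 2278 and by 0.12 in mouse 2279. The same difference was 0.0075, -0.0023 and 0.026 in WT mice 2277, 2280 and 2281, so in each *HrasG12V* mouse it lay outside the WT range. The ratio of mean core FPKM to mean cap FPKM showed this as 1.79 in mouse 2276, 1.51 in mouse 2278 and 1.41 in mouse 2279, against 1.59 to 1.66 in WT mice. As the 3 *HrasG12V* mice lay on both sides of the WT mice, the genotypes overlapped in these values, which are not adjusted for transcript length.

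In mouse 2276 the difference from WT followed transcript length, among the members as among other genes. Core transcripts are the shorter ones, with a median length of 1162.5 bases against 1819 bases for the cap, by the longest coding transcript of GENCODE vM21. The difference of the 38 members from the WT mean in mouse 2276 had Pearson's r = -0.73 and Spearman's rho = -0.64 with log2 length, across genes that share 1 library. Over all 13262 genes with a length, r was weaker at -0.26 and rho was -0.53. In mice 2278 and 2279 r was -0.12 and 0.13 for the members and -0.089 and -0.085 for all genes. Over all genes with a length, the median difference in mouse 2276 was 0.78 for transcripts under 1000 bases, 0.54 from 1000 to 2000, 0.09 from 2000 to 4000 and -0.40 above. For the members it was 1.08 (5 genes), 0.81 (22 genes), 0.48 (9 genes) and -0.14 (2 genes) in the same bins, the last with very few genes. After each library's trend over length was removed, a step chosen after the data were seen, the core was at 0.26, -0.12 and 0.073 in mice 2276, 2278 and 2279 and the cap at 0.33, -0.080 and 0.11. Core minus cap was then -0.074, -0.041 and -0.038 in mice 2276, 2278 and 2279, against -0.00049, 0.0028 and 0.022 in WT mice 2277, 2280 and 2281. With this step all 3 *HrasG12V* mice thus lay below every WT mouse, by small amounts and with no test made. The medians of the log2 fold changes were then 0.06 for core and 0.15 for cap. The part of length in the result, whether from RNA quality, library preparation or the tissue, was not tested.

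**Figure D2:**
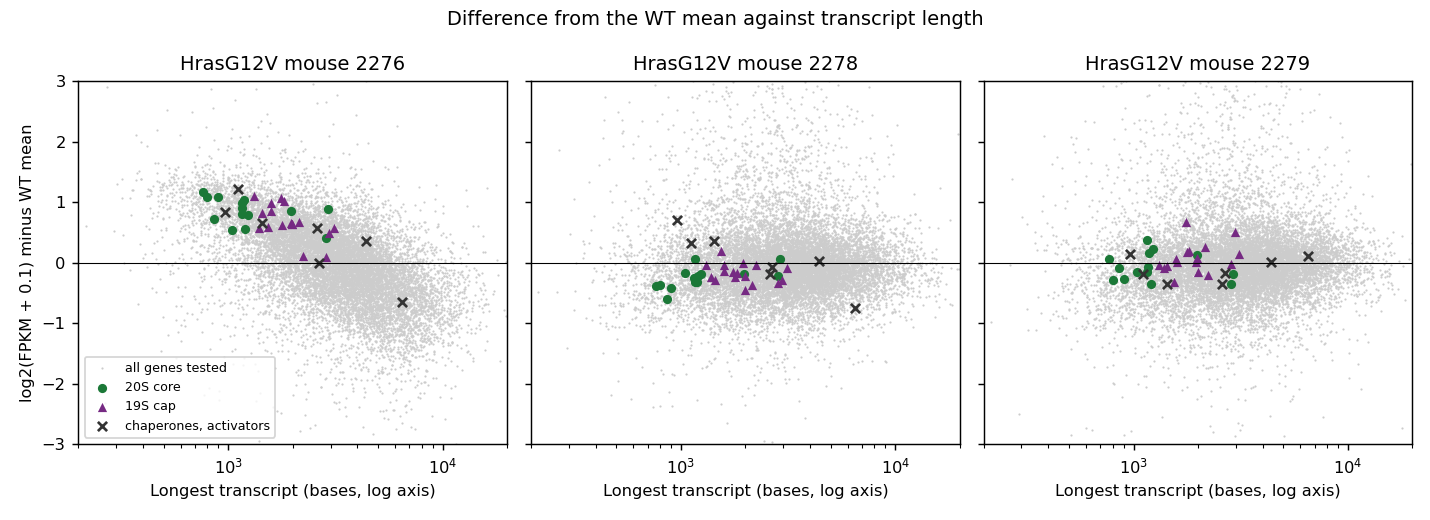
Difference of each gene from the mean of the 3 WT mice, in log2(FPKM + 0.1), against the length of its longest transcript on a log axis, for the 3 *HrasG12V* mice. Grey points are all genes with a length, green circles core genes, purple triangles cap genes and crosses chaperones and activators. In mouse 2276 the points slope downwards with length and the members follow (r = -0.73), and in mice 2278 and 2279 the members show no such slope. Of the genes with a length, 369, 532 and 529 lie outside the axes in mice 2276, 2278 and 2279.

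The catalytic subunits showed the pattern of the core in full. *Psmb5*, which carries the chymotrypsin-like site, had an FPKM of 129.8, 123.7 and 130.2 in WT mice 2277, 2280 and 2281 and of 272, 95.5 and 106 in mice 2276, 2278 and 2279. One mutant was above all WT mice and the others below, and the log2 fold change was 0.13 with an SE of 0.42 (limma adjusted p = 0.946). *Psmb6*, the caspase-like subunit, had 122, 119.7 and 135 FPKM in WT mice and 266, 96.6 and 103 FPKM in *HrasG12V* mice. Its log2 fold change was 0.14 with an SE of 0.42 (limma adjusted p = 0.942). *Psmb7*, the trypsin-like subunit and the most abundant member, had 232, 223 and 240.0 FPKM in WT mice and 402, 186 and 208 FPKM in *HrasG12V* mice. Its log2 fold change was 0.11 with an SE of 0.34 (limma adjusted p = 0.946). All 3 thus had 1 *HrasG12V* mouse above and 2 below the WT mice. In GENCODE vM21 on GRCm38, *Psmb5* lies at chr14:54614119-54618022 (minus strand), *Psmb6* at chr11:70525367-70527858 (plus) and *Psmb7* at chr2:38588036-38644087 (minus). Of the runs of 50 bases in its transcript, 57.1% of those of *Psmb5* occur in other genes, mostly near copies such as *Psmb5-ps*, and 28.1% of those of *Psmb7* overlap *Nek6* on the opposite strand, so the FPKM of *Psmb5* is uncertain to the extent that such reads were shared out.

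The remaining beta ring genes *Psmb1*, *Psmb2*, *Psmb3* and *Psmb4* are structural. *Psmb4* had the highest log2 fold change of the ring, 0.29, with 131, 121 and 120 FPKM in WT mice and 253, 98.8 and 138 FPKM in *HrasG12V* mice. *Psmb2* had the lowest, 0.0065, with 80.9, 73.7 and 79.7 FPKM in WT mice and 128, 51.4 and 73.2 FPKM in *HrasG12V* mice. *Psmb3*, one of the most abundant core genes, had 136, 127 and 131 FPKM against 296, 100.3 and 137 FPKM, with a log2 fold change of 0.28, and 55.8% of its runs of 50 bases occur in other genes. Mouse 2279 was above the WT mice for *Psmb3* and *Psmb4* and below them for *Psmb2*, and mouse 2278 was below them for all 3 genes. The ring as a whole had a median difference of 1.03, -0.38 and -0.092 in mice 2276, 2278 and 2279.

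The alpha ring had a median difference of 0.79, -0.18 and -0.15 in mice 2276, 2278 and 2279, nearer to WT than the beta ring in mice 2276 and 2278 and further from it in mouse 2279. *Psma7* had the highest log2 fold change of the core, 0.37 with an SE of 0.33 (limma adjusted p = 0.744), from 65.8, 70.2 and 63.7 FPKM in WT mice and 131, 55.9 and 85.8 FPKM in *HrasG12V* mice. *Psma3* had the lowest, -0.06 with an SE of 0.26, from 137, 135 and 145 FPKM and 184, 119.7 and 109 FPKM. *Psma1* was close to 0 at -0.0055, from 79.2, 71.6 and 70.8 FPKM and 108, 63.6 and 57.9 FPKM. The least abundant core gene, *Psma5*, had 52.6, 49.6 and 48.6 FPKM and 86.9, 44.3 and 58.6 FPKM, a log2 fold change of 0.28. In each of these genes mouse 2276 was highest and mouse 2278 below the WT mice, and mouse 2279 was above them for *Psma5* and *Psma7* and below for *Psma1* and *Psma3*. Of the runs of 50 bases of *Psma5*, 55.4% occur in *Gm8394*, *Gm12989* or the antisense gene *1700010K24Rik*, and 22.0% of those of *Psma3* occur in 3 other genes.

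**Figure D3:**
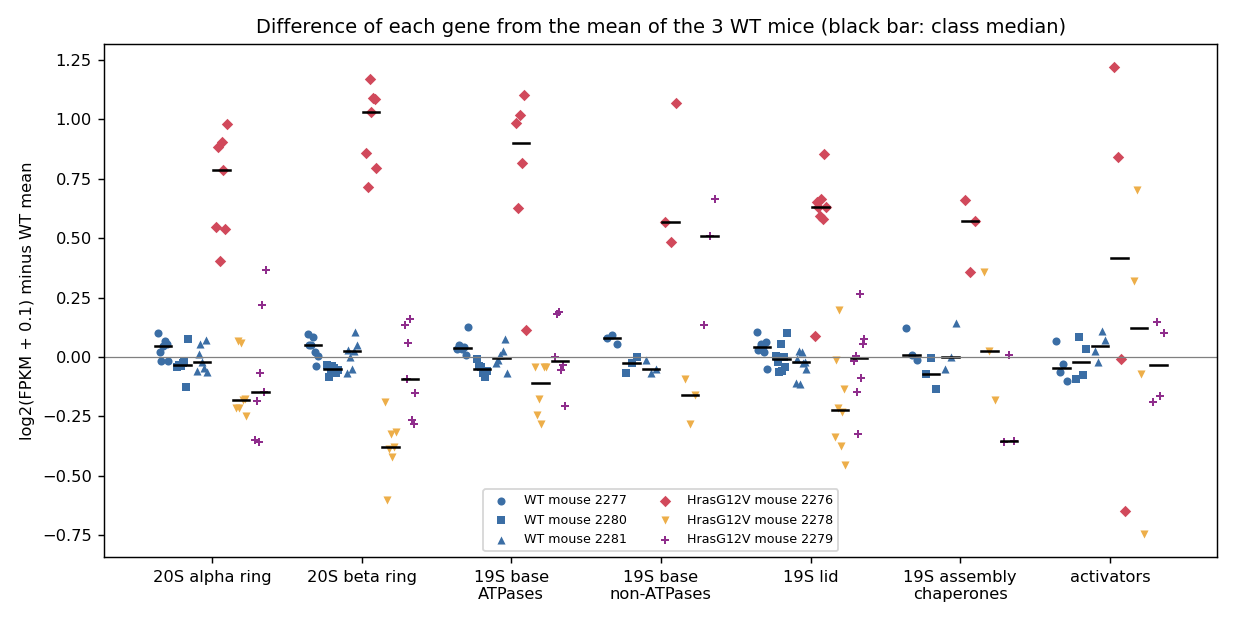
Difference of each of the 38 members tested from the mean of the 3 WT mice in log2(FPKM + 0.1), by class and mouse, with 1 point per gene and a black bar at the class median. WT mice lie close to 0 in every class. Mouse 2276 is highest in the beta ring (1.03), mouse 2278 is lowest there (-0.38), and mouse 2279 is highest among the non-ATPase base genes (0.51).

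The base of the cap was led by a ubiquitin receptor. *Psmd4*, which binds ubiquitin chains, had the highest log2 fold change among core and cap genes, 0.53 with an SE of 0.33 (limma unadjusted p = 0.161, adjusted p = 0.640). Its level was 77.6, 74.7 and 72.2 FPKM in WT mice and 157, 66.9 and 119 FPKM in *HrasG12V* mice, with mice 2276 and 2279 above the WT mice and mouse 2278 below. *Psmd4* lies at chr3:95032694-95042614 on the minus strand and none of its runs of 50 bases occurs in another gene. *Psmd2* had 98.0, 90.4 and 87.7 FPKM in WT mice and 128, 75.6 and 131 FPKM in *HrasG12V* mice, a log2 fold change of 0.24, and shares 26.4% of its runs of 50 bases with other genes. *Psmd1*, the other large scaffold of the base, had 65.3, 58.9 and 61.1 FPKM and 91.6, 57.8 and 67.7 FPKM, a log2 fold change of 0.20. For all 3 the order was the same, with mice 2276 and 2279 above the WT mice and mouse 2278 below. The median of these 3 genes was 0.57, -0.16 and 0.51 in mice 2276, 2278 and 2279, so mouse 2279 departed here from its value of 0.0035 for the cap as a whole.

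The 6 ATPases form the ring that pulls the substrate into the core, and their median difference was 0.90, -0.11 and -0.017 in mice 2276, 2278 and 2279. *Psmc3* had the highest log2 fold change of the ATPases, 0.34 with an SE of 0.33 (limma adjusted p = 0.771), from 92.1, 87.4 and 90.3 FPKM in WT mice and 182, 79.5 and 102 FPKM in *HrasG12V* mice. *Psmc6* had the lowest, -0.05, from 98.7, 86.8 and 86.5 FPKM and 97.8, 88.0 and 78.4 FPKM. Unlike the other ATPases, *Psmc6* was not above the WT range in mouse 2276.

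The lid had the smallest median log2 fold change of the core and cap classes, 0.12. *Psmd7*, the partner of the deubiquitinase, had the highest value in the lid, 0.26, from 70.6, 65.5 and 66.5 FPKM in WT mice and 122, 61.5 and 70.1 FPKM in *HrasG12V* mice. *Psmd11* had the lowest, -0.09, from 62.6, 58.5 and 54.0 FPKM and 61.9, 46.1 and 57.7 FPKM, and its mouse 2276 lay within the WT range. The deubiquitinase gene *Psmd14* had 37.2, 37.2 and 33.1 FPKM and 54.1, 41.1 and 28.5 FPKM, a log2 fold change of 0.16. It differed from the rest of the lid in that mouse 2278 was above the WT mice. *Psmd13*, the other cap gene of low level, had 47.3, 44.0 and 46.8 FPKM and 71.5, 39.6 and 41.5 FPKM, a log2 fold change of 0.09.

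Chaperones that bind the ATPases while the base is built, *Psmd5*, *Psmd9* and *Psmd10*, had log2 fold changes of 0.13, 0.01 and 0.22. *Psmd5* had 12.3, 12.2 and 12.3 FPKM in WT mice and 15.8, 12.5 and 12.4 FPKM in *HrasG12V* mice, and was named because its groups did not overlap, which was chosen after its values were seen. Its limma adjusted p was 0.829. *Psmd10* had 7.41, 6.45 and 6.55 FPKM and 10.8, 8.73 and 5.27 FPKM, and *Psmd9* had 7.46, 6.84 and 8.33 FPKM and 11.2, 6.61 and 5.86 FPKM. For both genes mouse 2276 was above and mouse 2279 below the WT mice.

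The activators, which open the core without the cap, differed in the sign of their log2 fold changes, and *Psme2* alone of the 4 passed an unadjusted p below 0.05. *Psme1* and *Psme2* encode the subunits of the PA28 ring that interferon induces, *Psme3* encodes its nuclear relative and *Psme4* the large activator PA200. *Psme2* had 17.5, 19.4 and 18.0 FPKM in WT mice and 32.8, 29.8 and 20.3 FPKM in *HrasG12V* mice, all 3 above every WT mouse. It rose by a log2 fold change of 0.56 (95% interval 0.04 to 1.09, SE 0.22, limma unadjusted p = 0.0388, adjusted p = 0.481). Leaving out any 1 of the WT mice, or mouse 2276 or 2278, ended this call, and p ran from 0.00409 without mouse 2279 to 0.115 without WT mouse 2277. The call was also lost with the trend over length removed (0.43, limma unadjusted p = 0.0966, adjusted p = 0.513), with libraries scaled to the same total (limma unadjusted p = 0.0574, adjusted p = 0.943) and without moderation (limma unadjusted p = 0.0592, adjusted p = 0.525). At 962 bases *Psme2* is among the shorter transcripts. *Psme2*, at chr14:55587441-55591113 on the minus strand, shares 59.3% of its runs of 50 bases with *Psme2b* and *Gm7928*, so its level is uncertain. *Psme1* had 28.4, 25.4 and 27.6 FPKM in WT mice and 63.3, 33.9 and 23.8 FPKM in *HrasG12V* mice, so the groups overlapped through mouse 2279, and the log2 fold change was 0.45 with an SE of 0.36 (limma adjusted p = 0.717). *Psme3* had 30.7, 29.8 and 33.8 FPKM and 31.2, 29.8 and 27.98 FPKM, a log2 fold change of -0.08 with a 95% interval of -0.46 to 0.29. It was the only 1 of the 38 members tested whose coefficient of variation was smaller among *HrasG12V* mice (5.39%) than among WT mice (6.75%). *Psme4* had 72.4, 79.5 and 81.6 FPKM and 49.7, 46.3 and 83.4 FPKM, a log2 fold change of -0.43 with a 95% interval of -1.08 to 0.22. Here mice 2276 and 2278 were both below the WT mice, while mouse 2279 was above them. At 6491 bases *Psme4* has the longest transcript of the members. With the length trend removed, its difference from WT was -0.13, -0.69 and 0.10 in mice 2276, 2278 and 2279, against -0.65, -0.75 and 0.10 before. The log2 fold change was then -0.24 (limma unadjusted p = 0.329, adjusted p = 0.719).

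The genotype comparison rested on mouse 2276. Without it, the log2 fold change was negative for 29 of 38 members, among them 12 of 14 core and 13 of 17 cap genes, and the median was -0.16 for core and -0.04 for cap. The highest genes of the classes were then closer to WT, with *Psma7* at 0.06, *Psmd4* at 0.25 and *Psmc3* at 0.0058. *Psma3*, *Psmb5* and *Psmb6* were then lower at an unadjusted p below 0.05, with log2 fold changes of -0.29, -0.34 and -0.33 and limma adjusted p of 0.157, 0.111 and 0.1296. These 3 of 38 calls compare with 17.3% of all genes tested without that mouse, and none of the members was higher, against 12.6% of all. Without mouse 2278 the medians were 0.41 for core and 0.38 for cap and 2 genes were higher, *Psma7* (0.67) and *Psmd4* (0.87), against 4.0% of all genes tested. Without mouse 2279 the medians were 0.33 and 0.24, *Psmd10* (0.51), *Psme1* (0.77) and *Psme2* (0.77) were higher, against 4.74% of all, and *Psme4* (-0.70) was lower, against 6.56%. No member passed an adjusted p below 0.05 in any of the 6 fits that left out 1 mouse.

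The catalytic subunits that replace *Psmb5*, *Psmb6* and *Psmb7* in immune cells lie outside the rule but share their place in the core. *Psmb8*, which replaces *Psmb5*, had 3.80, 3.91 and 3.41 FPKM in WT mice and 6.91, 12.3 and 14.2 FPKM in *HrasG12V* mice, a log2 fold change of 1.501 (limma adjusted p = 0.288). Its level was thus 2.93%, 3.16% and 2.62% of that of *Psmb5* in WT mice and 2.54%, 12.9% and 13.4% in mice 2276, 2278 and 2279. *Psmb9* was at 1.28%, 2.28% and 1.06% of *Psmb6* in WT mice and at 1.03%, 7.72% and 6.75% in *HrasG12V* mice, and *Psmb10* at 2.66%, 2.85% and 2.29% of *Psmb7* and at 3.75%, 4.89% and 4.51%. In mouse 2276, where the constitutive subunits were highest, the share of *Psmb8* and *Psmb9* was below that of every WT mouse. A two-sided exact permutation test over the 20 relabellings of the mice gave p = 0.4, 0.4 and 0.1 for the 3 ratios, the last being the smallest that 3 against 3 mice allow, and adjusted p of 0.4, 0.4 and 0.3.

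Markers of immune cells differed between the same mice. The 8 B cell markers summed to 0.732 to 1.26 FPKM in WT mice and to 1.39, 88.8 and 70.8 FPKM in mice 2276, 2278 and 2279. The 8 T cell markers summed to 1.13 to 1.53 FPKM and to 1.68, 37.3 and 48.0 FPKM, and the 5 neutrophil markers to 0.716 to 3.57 FPKM and to 19.7, 129.5 and 50.8 FPKM. Of 8 macrophage markers 7 were listed, without *Adgre1*, and summed to 55.4 to 67.2 FPKM and to 85.1, 113 and 62.4 FPKM. At an unadjusted p below 0.05 by limma, 3 of 8 B cell, 6 of 8 T cell, 4 of 5 neutrophil and 1 of 7 macrophage markers were higher. None of them was lower. Over all genes tested, 5.18% were called higher and 4.99% lower, which are the shares for every marker list here. Other tissue markers differed as well. The 4 endothelial markers summed to 137 to 163 FPKM in WT mice and to 104, 115 and 117 FPKM in *HrasG12V* mice, with 2 of 4 lower at an unadjusted p below 0.05, and the 6 fibroblast and tendon markers to 1416 to 2977 FPKM and to 653, 2507 and 757 FPKM, with 1 of 6 (*Tnmd*) lower. The 3 erythroid markers summed to 9.24 to 11.9 FPKM and to 24.2, 35.1 and 14.4 FPKM, with 2 of 3 higher, and the 4 adipocyte markers to 5.30 to 28.3 FPKM and to 14.5, 76.7 and 61.3 FPKM, with none called. The part of any of these lists in the levels of the proteasome and immunoproteasome genes was not tested, and in a whole muscle fewer cells of a type and less RNA per cell cannot be told apart.

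**Figure D4:**
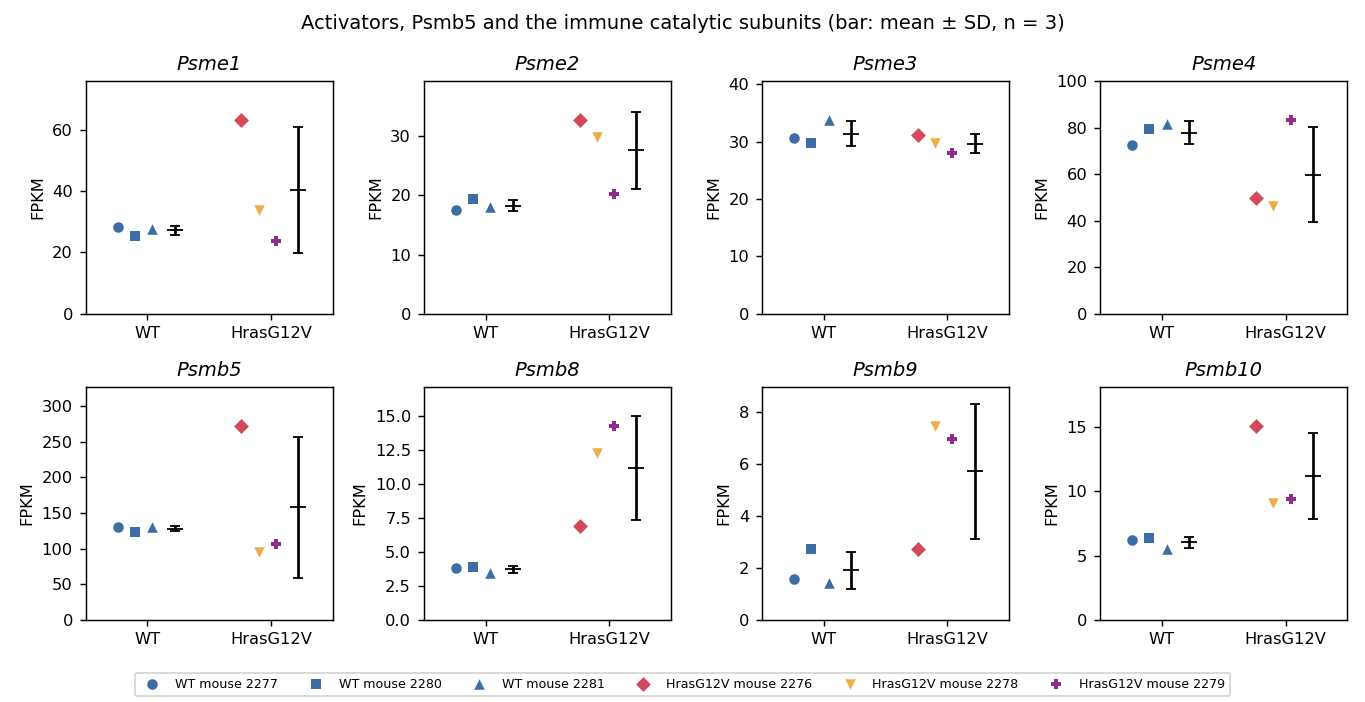
FPKM of the 4 activators, of *Psmb5* and of the immune catalytic subunits in each mouse, on axes from 0, with the mean ± SD of each genotype (n = 3 mice) beside the points. *Psme2*, *Psmb8* and *Psmb10* are above the WT mice in all 3 *HrasG12V* mice, *Psmb5* only in mouse 2276, and *Psme4* is below them in mice 2276 and 2278.

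A list of 34 further genes of the pathway gave 3 called higher and 0 called lower at an unadjusted p below 0.05 by limma, and 0 at an adjusted p below 0.05. Over all genes tested the shares were 5.18%, 4.99% and 0.0599%. The 3 were *Psmb8*, *Psmb9* (log2 fold change 1.46) and *Psmb10* (0.85). Over the other 31 genes the median log2 fold change was 0.02. Like the core genes, the 5 chaperones that assemble the core were above every WT mouse in mouse 2276, as were 43.1% of all genes tested, with a median difference of 1.09, and had -0.18 and -0.21 in mice 2278 and 2279. The 9 shuttle and segregase genes, which bring ubiquitinated proteins to the cap, had 0.066, -0.39 and -0.015, and all 9 were below every WT mouse in mouse 2278, as were 44.9% of all genes tested. The 6 genes of ubiquitin and its activating enzymes had 0.78, -0.21 and -0.021.

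The 5 genes of proteasome transcription were also below every WT mouse in mouse 2278, where 44.9% of all genes were, and had a median difference of -0.063, -0.55 and -0.012 in mice 2276, 2278 and 2279. *Nfe2l1*, the main activator of proteasome genes, had 187, 155 and 155 FPKM in WT mice and 172, 105 and 118 FPKM in *HrasG12V* mice. It was within the WT range in mouse 2276, where the proteasome genes were highest, and below it in mice 2278 and 2279. These values are not adjusted for transcript length. With the length trend removed, the difference of *Nfe2l1* from WT was 0.34, -0.58 and -0.45 in mice 2276, 2278 and 2279. Before that step it was 0.063, -0.65 and -0.49. Whether *Nfe2l1* goes with the proteasome genes was not tested. Its log2 fold change was -0.36 with an SE of 0.26 (limma unadjusted p = 0.219, adjusted p = 0.697). Without mouse 2276 it was -0.57 (limma unadjusted p = 0.00817, adjusted p = 0.0629). In that fit *Nfe2l1* was the 1 of 34 pathway genes called lower, against 17.3% of all genes tested.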

How the data were processed

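RNA of 6 gastrocnemius muscles was sequenced as stranded mRNA libraries with single-end reads, and the authors mapped the reads with TopHat and computed FPKM per gene with Cufflinks and Cuffnorm. The deposited FPKM were used, 1 value per gene symbol and mouse, on GRCm38 (mm10) per the submitters' processing notes. Versions of these tools, and the annotation, were not given in the sources used here. Ratios of values under 0.2 FPKM between libraries were searched for steps of whole reads. The fullest interval, 0.02 wide on the log2 scale, held 5.18% to 6.70% of genes in the 3 pairs of WT libraries and 1.12% to 2.80% in the other 12 pairs, so values piled up among WT libraries, but whole reads could not be recovered for most genes. No count model was used and the depth of single libraries is known only as the nominal depth of the methods.

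Symbols averaging 0.5 FPKM or more over the 6 mice were kept, and log2(FPKM + 0.1) was compared between 3 *HrasG12V* and 3 WT mice in R 4.3.3 by the two-sided moderated test of limma 3.58.1, whose prior variance followed mean level, with Benjamini-Hochberg adjustment over all 13359 genes, without covariates. Fold changes on this scale understate changes of low genes. A fold or difference of a single mouse is from the mean log2 value of the WT mice. No paired fit was made, as the labels share no number between genotypes. The fit was tested on simulated data with 200 changed genes and independent noise of the same spread in all 6 mice. That setting does not show how the fit behaves when 1 mouse departs from its group.

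Members, classes, pathway genes and markers were chosen with earlier results of these data known, so classes got counts and medians and no test. Named were the catalytic subunits, the highest and lowest log2 fold change in each class, members with an unadjusted p below 0.05, those under the filter, the 2 highest and 2 lowest mean levels in core and cap, all activators, and among pathway genes *Nfe2l1* and those past that p. Transcript lengths, positions and shared runs of 50 bases came from GENCODE vM21, in which 99.3% of the genes tested had a length, and promoter windows from RefSeq. Alternatives were 10 planned settings and the omission of each of the 6 mice, and 2 more, removal of each library's trend over length or GC content, were added after the data were seen. Python 3.11.15, pandas 2.3.3, numpy 2.4.6, scipy 1.17.1 and matplotlib 3.10.9 were used.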

Additional observations from a re-analysis of the deposited data

How the results depend on the processing

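No adjusted call was made among the members under any setting tried, and the sign of most single log2 fold changes depended on 1 mouse or on the weight of mouse 2276. The number of members called higher, 1 in the comparison above, was 2 with quantile normalization and 0 with libraries scaled to the same total, without moderation and with the length trend removed. Of all 13359 genes tested, 692 were called higher in the comparison above and 827 with quantile normalization. The number was 379 with the same total, 554 without moderation and 864 with the length trend removed. For the pathway genes it was 5 instead of 3 with quantile normalization, and the number lower was 1 instead of 0 with pseudocounts of 1 and 0.01 and without the filter, and 2 without moderation and with array weights. Of all 13359 genes tested, 666 were called lower in the comparison above and 671 and 674 with those pseudocounts. The number was 763 without moderation, 1645 with array weights and 859 of 19388 genes without the filter. With array weights, in which mouse 2276 got a weight of 0.0933, the log2 fold change was -0.28 for *Psmb5*, -0.24 for *Psmb6*, -0.18 for *Psmb7*, -0.067 for *Psmb4*, -0.32 for *Psmb2*, -0.13 for *Psmb3*, -0.012 for *Psmd7*, -0.015 for *Psmd14*, -0.14 for *Psmd13* and -0.19 for *Psmd9*, and the medians were -0.12 for core and -0.02 for cap. With the length trend removed it was -0.0020 for *Psmb5*, -0.0034 for *Psmb6*, -0.011 for *Psmb7* and -0.13 for *Psmb2*, and with the GC trend removed 0.12 for *Psma3*, 0.17 for *Psmc6* and 0.12 for *Psma1*. Scaling to the same total gave -0.0053 for *Psmb2* and -8.82e-05 for *Psmd9*, quantile normalization -0.024 for *Psmd9* and 0.011 for *Psma1*, and median centring 0.0059 for *Psma1*.

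Leaving out each mouse in turn gave 0 to 3 members higher and 0 to 3 lower, and 3 to 4 pathway genes higher and 0 to 4 lower. Of the 13211 to 13404 genes tested in these fits, 304 to 1686 were called higher and 298 to 2320 lower. The medians were -0.16 to 0.41 for core and -0.04 to 0.38 for cap, with a difference of -0.12 to 0.10 between them. Log2 fold changes ran from -0.28 to 0.17 for *Psma1*, -0.29 to 0.095 for *Psma3*, -0.35 to 0.31 for *Psmb2*, -0.16 to 0.61 for *Psmb3*, -0.082 to 0.60 for *Psmb4*, -0.34 to 0.41 for *Psmb5*, -0.33 to 0.40 for *Psmb6*, -0.23 to 0.32 for *Psmb7*, -0.12 to 0.036 for *Psmc6*, -0.0013 to 0.51 for *Psmd10*, -0.18 to 0.036 for *Psmd11*, -0.18 to 0.24 for *Psmd13*, -0.063 to 0.40 for *Psmd14*, -0.040 to 0.46 for *Psmd7* and -0.27 to 0.20 for *Psmd9*. *Psme2* kept its direction, at 0.43 to 0.77, as did *Psma7* at 0.06 to 0.67, *Psmd4* at 0.25 to 0.87, *Psmc3* at 0.0058 to 0.60, *Psma5* at 0.019 to 0.50, *Psmd1* at 0.020 to 0.35, *Psmd2* at 0.10 to 0.50, *Psme1* at 0.065 to 0.77, *Psme4* at -0.70 to -0.27 and *Nfe2l1* at -0.57 to -0.21. No paired analysis was possible because the genotypes share no mouse or replicate number. Apart from the mouse left out, the cause of these changes was not tested, and FPKM without counts does not give the number of reads behind each value.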

Other observations

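Mouse 2279 was above every WT mouse, and mice 2276 and 2278 below every WT mouse, for 3 of the 34 pathway genes and 1 of the 38 members (*Psme4*), an order that 3.47% of all genes tested had and that was chosen after the values were seen. *Ddi2*, the protease that activates Nfe2l1, had 16.9, 17.4 and 17.7 FPKM in WT mice 2277, 2280 and 2281 and 9.82, 11.8 and 36.9 FPKM in mice 2276, 2278 and 2279. *Zfand5*, a proteasome-binding protein, had 71.9, 68.9 and 69.0 FPKM in WT mice and 39.5, 42.6 and 92.0 FPKM in *HrasG12V* mice. *Ubqln2*, a shuttle protein, had 9.63, 8.74 and 8.04 FPKM in WT mice and 4.68, 5.91 and 10.6 FPKM in *HrasG12V* mice. The log2 fold changes were -0.09 for *Ddi2*, -0.38 for *Zfand5* and -0.39 for *Ubqln2*, with limma adjusted p of 0.972, 0.752 and 0.710. In mouse 2276 the differences from WT were -0.81, -0.82 and -0.89 for *Ddi2*, *Zfand5* and *Ubqln2*. With the length trend removed they were -0.17, -0.25 and -0.86.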
